A study of Mus musculus with 2 samples.

Results

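Aim2 and the Ifi200 genes belong to the mouse PYHIN family, whose genes lie next to each other on chromosome 1. The set described here has 7 named members, Ifi202b, Ifi203, Ifi204, Ifi205, Aim2, Mndal and Pyhin1, and it was taken as every non-control probe whose gene name on the array equals a member. The rule found 6 of the 7 members and 12 of the 39429 probes of the array, and no probe carries the name Ifi205. The members were chosen from differences measured on these same arrays, because Ifi204 and its relatives seemed to lie at the high end of the otherwise lower Ifi genes. Their differences are therefore a description and were not tested.

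The cells were RAW264.7, a mouse macrophage-like line, measured on 1 Agilent array of control cells and 1 array of Lamtor1 knockdown cells. Lamtor1 anchors Ragulator to the lysosome, where it serves as a platform for Rag GTPases and mTORC1, and the series was made to look at the activity of the lysosomal transcription factor TFEB in cells that lack it. For both groups the labels give infection with a lentivirus carrying shRNA, a mixture of 2 vectors directed at Lamtor1, and then limited dilution. Neither the vector of the control cells nor the clonality of either sample is stated there. For each group 200 ng of total RNA was labelled with Cy3, and no stimulus such as interferon or DNA is named for either one.

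PYHIN proteins pair a pyrin domain, which binds other pyrin domains, with one or more HIN domains, which bind DNA. AIM2 binds double-stranded DNA in the cytosol and recruits the adaptor ASC and caspase-1 into an inflammasome. IFI204 is a mouse relative of human IFI16 and has been linked to DNA sensing through STING, while IFI202B has HIN domains without a pyrin domain and can oppose AIM2. Many of these genes respond to interferon in macrophages, and the copies of the locus differ between mouse strains.

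Each probe is a 60-base oligonucleotide, and what it reports depends on which of the near-identical copies it matches. All 12 member probes align to chromosome 1 in the mm9 build, per the array files; whether they lie in coding exons or in UTRs was not analysed here. The following probe sequences are shown whole for Mndal, Ifi202b and Ifi203, the members with the lower signals in the knockdown, and for Pyhin1, the member with the highest plain difference.
Mndal A_65_P17218: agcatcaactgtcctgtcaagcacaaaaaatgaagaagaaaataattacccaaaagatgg
Ifi202b A_51_P151182: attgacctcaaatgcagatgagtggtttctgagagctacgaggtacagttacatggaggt
Ifi203 A_55_P1966731: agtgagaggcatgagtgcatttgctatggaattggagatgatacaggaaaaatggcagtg
Pyhin1 A_55_P2036357: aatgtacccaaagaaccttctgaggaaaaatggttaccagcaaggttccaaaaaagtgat
Among the array's other probes that share a run of 12 bases with a member probe, the closest relative of a member probe was that of Gm7897, a gene of the same locus, against Ifi202b A_55_P2032167. They had 51 identical bases over 61 aligned columns. A stretch of 30 bases from each is shown with the 6 mismatches in capitals.
Ifi202b A_55_P2032167: TgCtCaaatataatacaTacaacaTccagC
Gm7897 A_55_P2006084: CgTtGaaatataatacaCacaacaGccagT
The Gm7897 probe was not well above background on either array, so it gave no measured level. No other such probe had more than 41 identical bases.

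The 250 bases before the start sites are shown for Mndal and Ifi203, because their differences lay closest to each other (-1.98 and -1.97 in log2, knockdown minus control). The windows are those of RefSeq on the GRCm38.p6 assembly, Mndal at chr1:173880188-173880437 and Ifi203 at chr1:173942493-173942742, both on the minus strand. The capitals mark a match to GAAANNGAAA, the core of the interferon-stimulated response element, searched on both strands.
Mndal: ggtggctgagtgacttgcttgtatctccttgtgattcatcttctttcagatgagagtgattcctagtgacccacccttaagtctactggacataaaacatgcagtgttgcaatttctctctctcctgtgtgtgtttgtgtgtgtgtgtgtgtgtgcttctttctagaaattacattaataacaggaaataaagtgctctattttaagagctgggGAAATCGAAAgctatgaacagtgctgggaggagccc
Ifi203: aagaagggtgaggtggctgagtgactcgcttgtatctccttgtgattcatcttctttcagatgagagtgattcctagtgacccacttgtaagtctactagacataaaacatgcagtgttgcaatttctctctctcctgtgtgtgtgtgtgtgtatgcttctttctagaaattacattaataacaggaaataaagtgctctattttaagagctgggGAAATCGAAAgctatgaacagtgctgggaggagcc
The table holds 2 windows for each of these genes, and the one with this match is shown. The other Ifi203 window has no match, and the other Mndal window has a match of different bases on the opposite strand. Aligned with each other, the windows shown held 233 identical bases of 250. The match begins 36 bases before the start in Mndal and 35 bases before it in Ifi203, and its 10 bases are the same in both.

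The same 10 bases, GAAATCGAAA, a form taken from the Mndal window after it was seen, recur across the locus. They stand in 13 of 32851 RefSeq promoter windows of this length (0.0396%), and 7 of those 13 windows belong to genes of this locus. Those 7 include the Mndal window that gave the form and the near-identical Ifi203 window, so nothing is read from the count. The looser motif GAAANNGAAA stands in 978 windows (2.98%) and in 936 of 27025 genes (3.46%), against 9 of the 12 genes of the locus that the table holds. Among the 6 members in the table it was found for Mndal, Ifi203 and Ifi205. No window was available for Ifi204, so its promoter was not searched. Stretches of 40 bases are shown for members and neighbours, with the matching bases in capitals.
Ifi207: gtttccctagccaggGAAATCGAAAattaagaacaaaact
Ifi208: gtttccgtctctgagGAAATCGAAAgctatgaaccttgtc
Ifi211: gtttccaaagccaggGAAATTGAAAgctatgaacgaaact
Ifi205: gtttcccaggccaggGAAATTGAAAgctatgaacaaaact
Ifi209: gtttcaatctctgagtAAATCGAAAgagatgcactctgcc
Ifi209 is the RefSeq symbol of Pyhin1. Its stretch differs from GAAATCGAAA at 1 base, the lower-case letter that opens the run, and so is no match. The windows of Aim2 and Ifi202b hold no match, which says only that these letters are not in those 250 bases of the reference assembly. The copies of the locus differ between mouse strains, and the promoter sequences of the RAW264.7 cells themselves were not examined. A match describes the sequence and says nothing here of whether a factor bound it.

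A level here is the log2 of a signal after division by its own array's 75th percentile (1172 in the control, 1255 in the knockdown), and differences are knockdown minus control. With 1 array per group no difference has a replicate check, and the number of arrays limits the precision. Among 216 probes with repeated spots, a log2 difference from single spots had a median SD of 0.0784, which covers spotting and scanning only, and each member probe was spotted once. Lamtor1, the targeted gene, went from a level of 4.10 to -0.43, 23.1-fold lower. All 8 macrophage markers were above background on both arrays, with log2 differences of -1.56 for Adgre1, -0.84 for Itgam and 1.22 for Cd68, and their part in the results was not tested. Of 19 markers of other cell types, 6 were above background on at least 1 array, among them Cd4 at 0.07, Cd3e at 0.05 and the neutrophil gene Elane at 1.16; no marker of B cells or epithelium was.

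The members split into 3 that were lower in the knockdown, Ifi202b, Ifi203 and Mndal, and a pair that differed little, Ifi204 and Aim2. Pyhin1 was near the limit of detection. By each gene's brightest probe, 3 of 6 members were lower by 2-fold or more, where 8.35% of the 13773 measured genes were, and 1 of 6, Pyhin1, was higher by that much, where 9.00% were. With genes above background on 1 array entered at their bound, explained below for Ifi203, 3 of 6 were lower, where 6.86% of genes were, and 0 higher, where 7.73% were. The median over the 6 was -1.13, against -0.05 over all measured genes. Over the members above background on both arrays, which leaves out Pyhin1, the count higher was 0 and the median was -1.97. Of the 10 member probes above background on at least 1 array, 7 were lower by 2-fold or more, where 8.36% of 21864 such probes of the array were, and 1 was higher, where 8.46% were. Since the same contrast chose the members, nothing is read from these counts. Each array measures a whole culture, so fewer cells with a transcript and less of it per cell cannot be told apart.

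**Figure D1:**
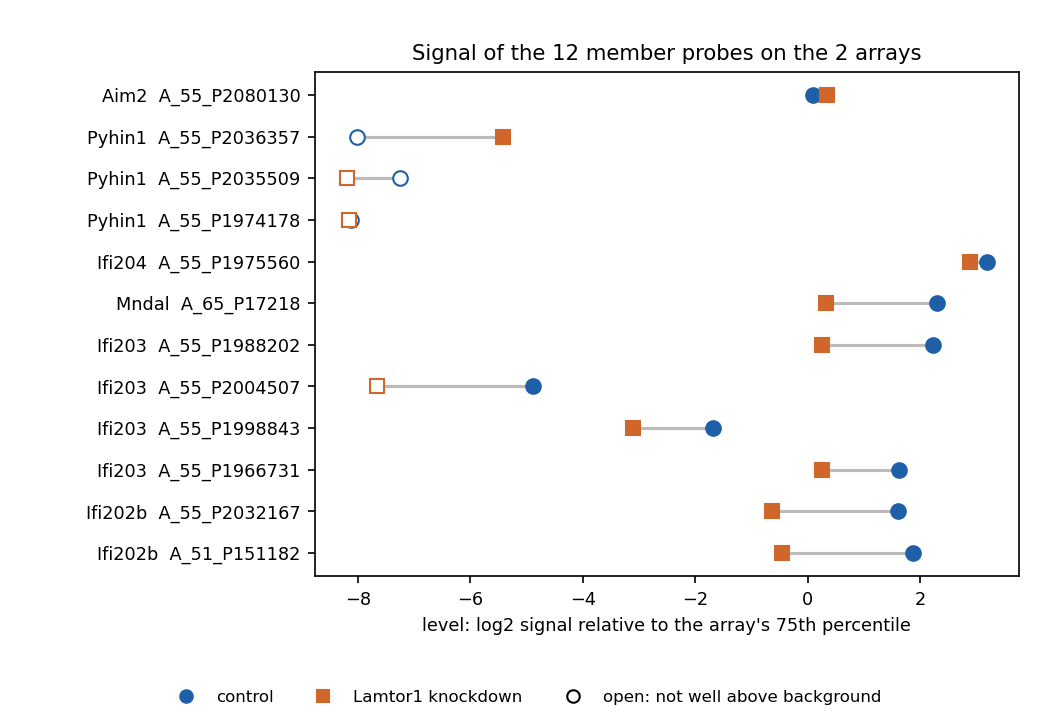
Level of each of the 12 member probes in the control (blue circles) and the Lamtor1 knockdown (orange squares), as log2 signal over the array's 75th percentile; open symbols were not well above background. The Ifi202b, Ifi203 and Mndal probes have their knockdown points to the left of their control points, while the points of Ifi204 (3.18 and 2.89) and Aim2 (0.09 and 0.35) nearly coincide; levels of different probes are not comparable.

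Ifi202b, the member without a pyrin domain, had the lowest difference by brightest probe. Its probe A_51_P151182 (chr1:175892953-175893982) gave a signal of 4306 in the control and 919.9 in the knockdown. In levels that was 1.88 and -0.45, a difference of -2.33, or 5.01-fold lower. Its positions span 1030 bases of the genome for 60 bases of probe, so the probe joins separate genomic blocks. The other probe, A_55_P2032167 (chr1:175892789-175892848), gave 3593 and 810.5, a difference of -2.25, or 4.75-fold lower. The probes lie 104 bases apart and differed by 0.08 in log2. That is about the spot error of a single difference, which does not measure a gap between different probes. They report the same gene and are not replicates of the condition.

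Mndal, named for its likeness to the human myeloid nuclear antigen MNDA, has 1 probe, A_65_P17218 (chr1:175787550-175787609). Its signal was 5809 in the control and 1581 in the knockdown. The level went from 2.31 to 0.33, a difference of -1.98, and the knockdown signal stood at 25.4% of the control after scaling, 3.94-fold lower.

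Ifi203, a PYHIN gene of the same locus as Mndal, has 4 probes, and all were lower in the knockdown. The brightest, A_55_P1988202 (chr1:175850536-175850595), gave 5473 and 1494, a level of 2.22 against 0.25 and a difference of -1.97, or 3.92-fold lower. A_55_P1966731 (chr1:175854206-175854265) gave 3601 and 1502, a difference of -1.36. A_55_P1998843 (chr1:175852372-175852430) gave 364 and 145, a difference of -1.43. Both lie farther from the brightest probe than the repeat-spot error of 0.0784, and closer to each other than that. That error is of a single difference and not of a gap between probes, and by normexp these probes stood at -1.32 and -1.16. The fourth, A_55_P2004507 (chr1:175851818-175851877), gave 39.8 and 6.18, the latter not well above background. For such a probe the fold is a bound, the bright level set against the lowest level well above background on the other array or the probe's own level there, whichever is higher. By that bound it was at least 2.12-fold lower, and by normexp background correction it was 1.67-fold lower. The bound holds only for the scanner's signals as scaled here. Normexp adds an offset of 50 to every signal and can give a smaller fold than the bound.
The brightest probe holds a polyadenylation signal, in capitals among 30 of its bases, which the other 3 probes lack.
Ifi203 A_55_P1988202: cagtttgcatctAATAAAgtttcactggtt

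Ifi204, the relative of human IFI16, differed little by its own probe. The signal of A_55_P1975560 (chr1:175677647-175677706) was 10643 in the control and 9295 in the knockdown. The level went from 3.18 to 2.89, a difference of -0.29, with the knockdown at 81.5% of the control. Of all measured genes, 29.8% had a lower difference, and 44.4% had a smaller one in size.

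A second probe beside it gave another value. A_55_P2066578 (chr1:175677552-175677611) carries the name LOC100048309, lies 35 bases from the Ifi204 probe on the same strand, and lists the same predicted transcript among its accessions. It was singled out after its values were seen. Its signal was 1156 in the control and 359.9 in the knockdown, a level of -0.02 against -1.80 and a difference of -1.78, or 3.44-fold lower. The gap between the pair of probes was 1.49 in log2. The spot error of 0.0784 comes from repeated spots of the same probe and does not measure a gap between different probes. The first 30 bases of each show that they are different sequences rather than repeats.
Ifi204 A_55_P1975560: agtcgggagaacctctctggaaccatactt
LOC100048309 A_55_P2066578: gtagaagcctattgaaatatcagtcctata
Which transcript each one detects was not tested. With the LOC100048309 probe standing for Ifi204, 4 of 6 members would be at least 2-fold lower and the median would be -1.88.

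Aim2, the inflammasome sensor, was slightly higher in the knockdown. Its probe A_55_P2080130 (chr1:175396036-175396095) gave 1246 and 1598, a level of 0.09 against 0.35 and a difference of 0.26, or 1.20-fold higher. Of all measured genes 72.2% had a lower difference, and 39.8% had a smaller one in size. The probe contains a polyadenylation signal, shown in capitals in its last 30 bases.
Aim2 A_55_P2080130: tgtgaaattccctagcactcAATAAAagaa
The median size of difference over all measured genes was 0.34, above that of Aim2 and of Ifi204.

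Pyhin1, the member whose RefSeq symbol is Ifi209, was close to background. Probe A_55_P2036357 (chr1:175572633-175572691) gave 4.50 in the control, not well above background, and 29.2 in the knockdown. The plain difference of 2.60 is not a measured fold; by the bound it was at least 1.46-fold higher, and by normexp 1.23-fold higher. The other probes of the gene were not well above background on either array. A_55_P2035509 (chr1:175576265-175576324) gave 7.72 and 4.28, and A_55_P1974178 (chr1:175576564-175576623) gave 4.21 and 4.39. Pyhin1 thus reached 2-fold by its plain difference and by neither the bound nor normexp. For Ifi205 the sole match by accession is a probe named Mnda, A_55_P1962918, which also lists Ifi211. It gave 17.9 and 4.01 and was not well above background on either array, so Ifi205 has no measured value.

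**Figure D2:**
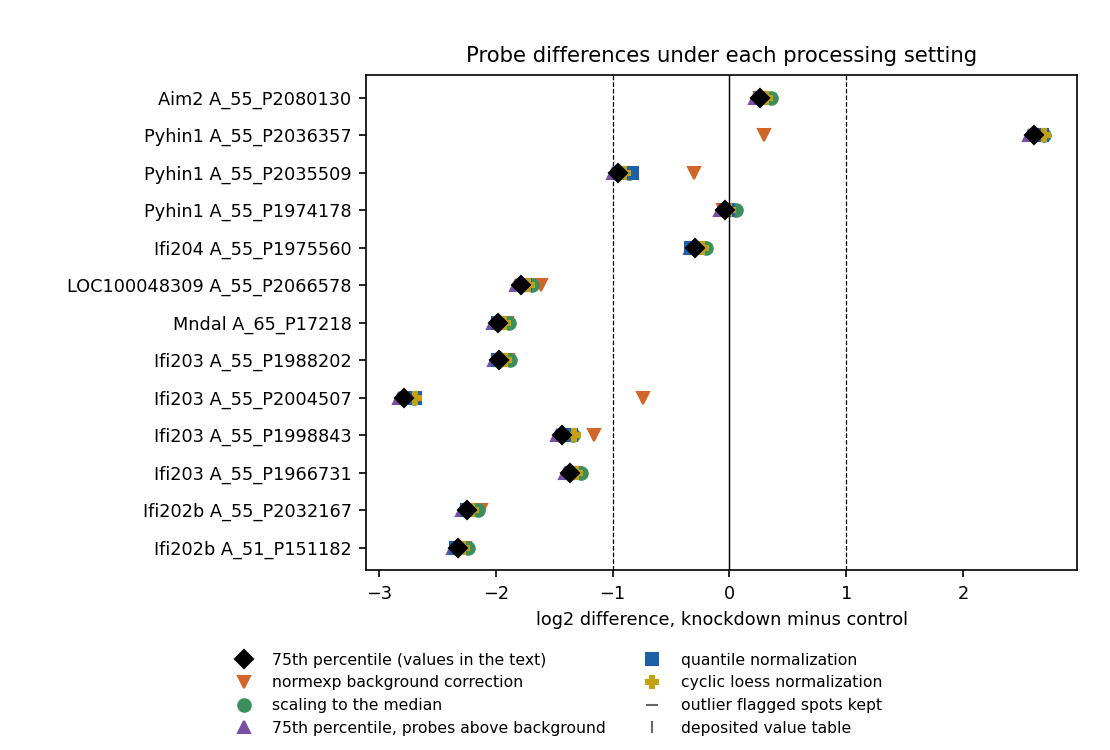
Log2 difference, knockdown minus control, of the 12 member probes and the LOC100048309 probe under the scaling used in the text (black) and 7 other settings; dashed lines mark 2-fold. The widest shifts are those of normexp for dim probes, to 0.30 for Pyhin1 A_55_P2036357 and to -0.74 for Ifi203 A_55_P2004507.

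Along the chromosome, the member probes that were 2-fold lower lay on the side of Ifi204 away from Aim2. The array holds 35 probes from Aim2 to LOC100044430, over 560.7 kb (chr1:175396036-175956690), of which 23 carry the name of no member. Of these, 11 were above background, and 4 of the 11 were at least 2-fold lower, where 8.36% of all probes above background were, and 0 at least 2-fold higher, where 8.46% were, with a median of -0.69 and a range of -1.90 to 0.23. On the side of Ifi202b, LOC235882, between Mndal and Ifi203, was at -1.89, and LOC100044430, annotated as similar to Ifi205, was at -1.90. LOC638301, between Ifi202b and LOC100044430, was at -0.63.
Nearer to Ifi204, Ifi207 was at 0.23 and 0.18 by its probes named AI607873, and Ifi208, named E430029J22Rik, was at -1.04 and -0.69. LOC434513 was at -0.70, LOC100047175 at -0.03 and the unnamed probe A_55_P1968085, toward Aim2, at -0.33. Of the other PYHIN genes listed, 2 of 6 were measured, Ifi207 within 2-fold and Ifi208 2.05-fold lower. Ifi207 and Ifi208 share GAAATCGAAA with Mndal and Ifi203, and by brightest probe the differences of these 4 genes ran from 0.23 to -1.98. Ifi206, Ifi213 and Ifi214 hold the same bases but were not measured. Whether these bases go with the differences was not tested.

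**Figure D3:**
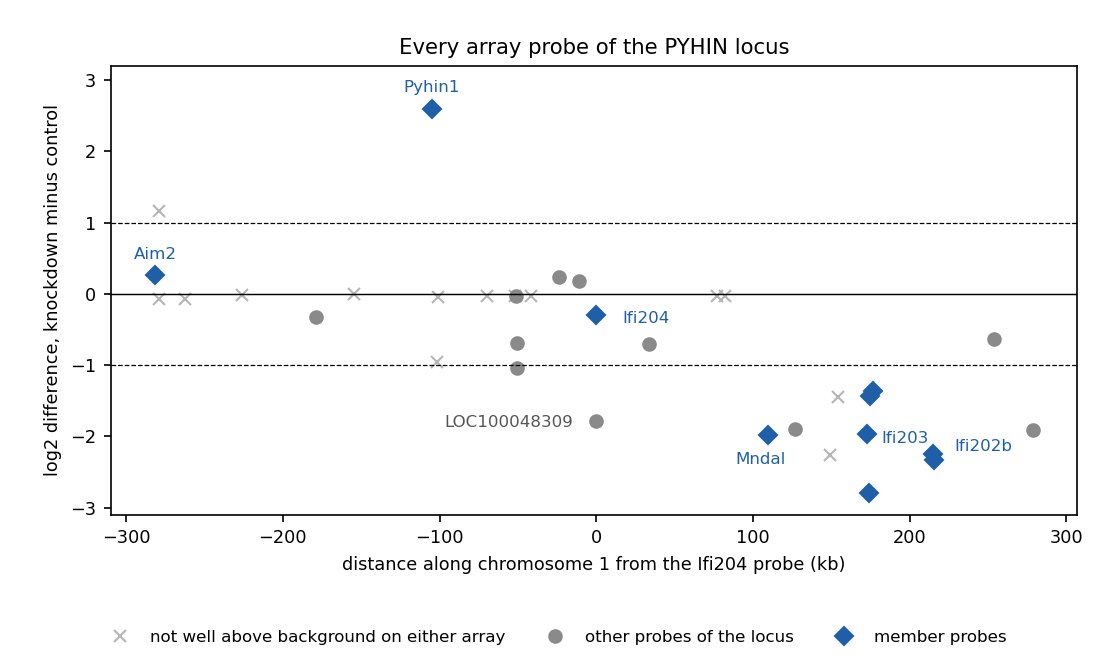
Log2 difference, knockdown minus control, of every array probe of the PYHIN locus against its distance along chromosome 1 from the Ifi204 probe in kb; diamonds are member probes, circles other probes above background and crosses probes not well above background on either array. The member probes to the right of Ifi204 lie between -1.36 and -2.79, and the LOC100048309 probe lies at -1.78 directly below Ifi204 at -0.29.

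The flanking genes given here are the nearest named ones on each side with a probe above background on at least 1 array, so any dimmer genes were passed over. Slamf8 passed this filter only through the knockdown, and Olfr433 and Olfr430 only through the control. For these genes the filter set the direction, so nothing is read from the directions on either side. Before Aim2, at 835.1 kb, Dusp23, a phosphatase gene, was 3.41-fold higher, from 21.5 to 78.3. Slamf8, which encodes a macrophage surface receptor, lies at 883.9 kb and went from 18.9, not well above background, to 551.4. By the bound, here equal to the plain difference, it was at least 27.2-fold higher, with a second probe at least 1.49-fold higher. Vsig8 was at 0.40 and the actin-binding Tagln2 at -0.16 and -0.13. After Ifi202b, beyond LOC638301 and LOC100044430, the olfactory receptor genes Olfr433 and Olfr430 were at least 1.63-fold and at least 2.70-fold lower, both from dim signals (30.7 to 4.70 and 50.8 to 8.06).

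A further list held genes of inflammasomes, among them those downstream of AIM2. Of 15 listed genes 14 were measured, 10 within 2-fold, 1 higher by more, where 9.00% of all measured genes were, and 3 lower, where 8.35% were, with a median of -0.04 that became 0.05 when arrays were scaled to the median. With normexp none of the 14 was at least 2-fold lower. Such small counts show nothing about the list. Casp4, the mouse caspase-11 gene, went from 3562 to 8936, 2.34-fold higher. Casp1 at 0.67, Pycard, which encodes ASC, at 0.35 and the pore gene Gsdmd at -0.50 stayed within 2-fold. The substrate gene Il18 was 2.05-fold lower (2049 and 1070.4) and 1.98-fold lower by normexp. Il1b went from 41.1 to 5.79 and was at least 2.20-fold lower by the bound on the scanner's signals, while normexp gave 1.69-fold. The sensor gene Nlrp3 was at -1.49 by one dim probe (112 and 42.8; 1.82-fold lower by normexp) and -0.34 by another.

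Of the genes of cytosolic DNA sensing, 13 of 16 lay within 2-fold, with a median of -0.25. The 1 gene higher and the 2 lower stand beside shares of 9.00% and 8.35% over all measured genes, and such small counts show nothing about the list. Zbp1, a sensor of Z-form nucleic acid, went from 344.8 to 62.8, 5.88-fold lower and 3.60-fold lower by normexp. Trex1, the exonuclease that degrades cytosolic DNA, went from 25043 to 11095, 2.42-fold lower. Xrcc5, the Ku80 gene, went from 1017 to 2319, 2.13-fold higher. All 8 listed genes of p53 and RB proteins, which HIN proteins have been linked to, were measured. Of them 0 were at least 2-fold lower (8.35% over all measured genes) and 0 higher (9.00%). With normexp 1 was higher, Mdm2, at 2.02-fold. Counts over so few genes show nothing about the list. Mdm2, 1.99-fold higher by its plain difference, and Rb1, 1.99-fold lower, lay just inside 2-fold, and Cdkn1a was at -0.45.

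Interferon signalling genes had 19 of 21 measured, 4 at least 2-fold lower (8.35% over all measured genes), 0 higher (9.00%) and a median of -0.40. Irf7, a transcription factor that interferon induces, went from 1434 to 64.8, 23.7-fold lower and 11.4-fold lower by normexp. Usp18 (3857 and 715.9) was 5.77-fold lower, Socs3 (1509.9 and 430.02) 3.76-fold and Irf9 (4588 and 1683) 2.92-fold. The interferon genes Ifnb1 and Ifna4 were not well above background on either array. The receptor genes Ifnar1 at -0.17 and Ifnar2 at -0.40 were within 2-fold.

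The Ifi genes outside the PYHIN family had the lowest median of the lists. Of 17, 16 were measured, 10 at least 2-fold lower (8.35% over all measured genes) and 0 higher (9.00%), with a median of -1.40. With normexp 5 of the 16 were at least 2-fold lower and the median was -0.71, where that of the PYHIN members was -1.08. Over genes above background on both arrays the median was -1.14, where that of the members was -1.97. Ifi27l2a went from 164012 to 12189.5, 14.4-fold lower. Ifi44l went from 1128 to 6.03, the latter not well above background. It was at least 59.95-fold lower by the bound on the scanner's signals, and 14.5-fold lower by normexp. Ifi27l2b went from 71.3 to 6.20 by its brightest probe, the latter not well above background. That was at least 3.79-fold lower by the bound and 1.95-fold lower by normexp, with another probe at -0.87. Against the median of -1.40, Ifi202b, Ifi203 and Mndal lay lower, at -1.97 to -2.33, and Ifi204, Aim2 and the dim Pyhin1 lay higher. The set was chosen with these same values in view, so nothing is read from where its members lie among the Ifi genes.

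**Figure D4:**
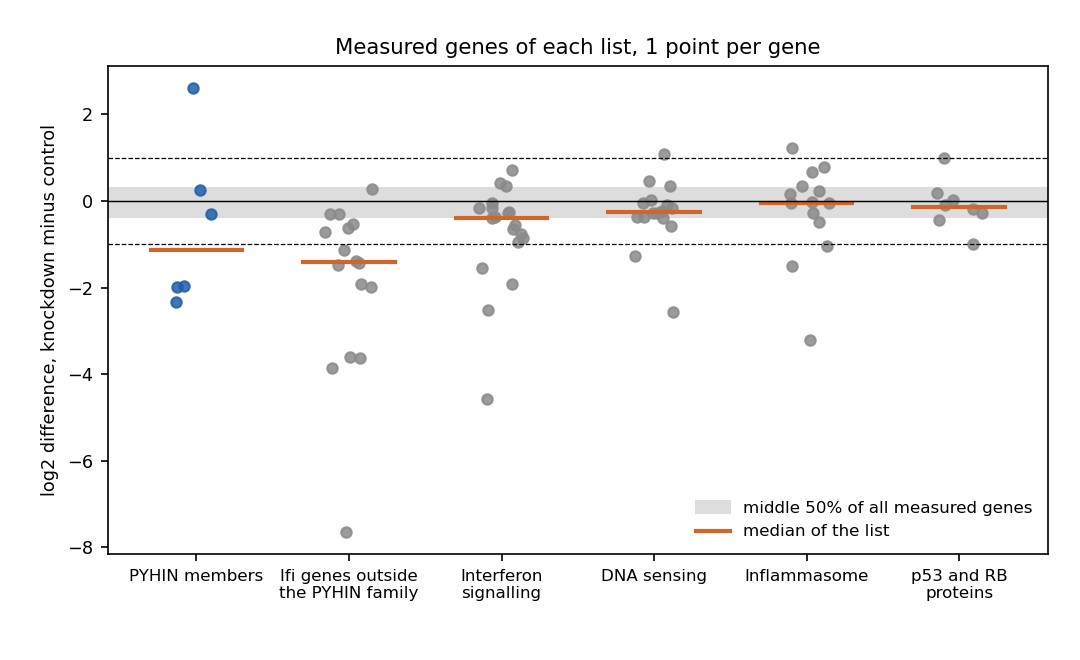
Log2 difference, knockdown minus control, of the measured genes of each list by brightest probe, 1 point per gene, with the list's median in orange, the middle 50% of all measured genes in grey and dashed lines at 2-fold. The PYHIN members split into 3 points from -2.33 to -1.97, Ifi204 at -0.29, Aim2 at 0.26 and the dim Pyhin1 at 2.60, and the Ifi genes outside the family have a median of -1.40; genes above background on 1 array are drawn at their plain difference.

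The 5 genes whose pair of levels lay nearest to that of Ifi204, by Euclidean distance over both arrays among 12564 genes above background on both, were Mrpl54 (-0.30), Anapc15 (-0.29), Rpf2 (-0.25), Xrcc6 (-0.36) and Snrpb (-0.35). Their distances ran from 0.0125 to 0.0514. The likeness rests on 2 values per gene from the same 2 arrays.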

How the data were processed

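The deposited scanner files give an intensity per spot on a linear scale. Agilent Feature Extraction 10.7.3.1 is named in the submitters' processing notes. Per the file headers, this intensity was detrended within the array, local background was not subtracted, dim signals were given surrogate values, positions refer to mm9, and both arrays share 1 slide and scan, so neither divides the groups. The deposited value table holds the same intensity at 3 significant digits (ratio 0.9951 to 1.005; column medians 28 and 27.8), so it is linear and uncentred.

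Of 43020 non-control spots, 53.3% (control) and 52.9% (knockdown) were well above background and 0 were saturated. Spots with outlier flags (162 and 177) were left out, which removed 9 probes and 0 member spots. From the log2 intensity its array's 75th percentile was subtracted, and repeated spots were averaged. Probes were named through a RefSeq table (GRCm38.p6, names only), and 9249 stayed unnamed. A gene took its brightest probe and counted as measured where that probe passed the scanner's background flag on 1 array or both. Calls are a log2 difference of 1 or more. There is 1 array per group and hence no test and no p-value.

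The members and lists were chosen with earlier results of these data known. Named genes are every member; genes of the inflammasome, DNA sensing and interferon signalling lists at 2-fold; up to 3 of each other list; 4 neighbours on each side; and the 5 genes nearest to Ifi204. Other locus probes and genes within 2-fold were named after their values were seen. The averaging of spots, the choice of probe and the 2-fold call were run on simulated shifts in genes above background on both arrays. That run put no shift into dim genes and did not cover bounds, normexp or scaling. Alternatives were normexp correction (limma 3.58.1 in R 4.3.3, offset 50), median scaling, scaling over probes above background, quantile and cyclic loess normalization, kept outlier spots, the value table, other rules for dim and multiple probes, and the LOC100048309 probe for Ifi204, the last chosen after seeing the data.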

Additional observations from a re-analysis of the deposited data

How the results depend on the processing

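Ifi202b, Ifi203 and Mndal stayed at least 2-fold lower by their brightest probes, and Ifi204 and Aim2 within 2-fold, under every array-wide alternative run; Mndal ranged from -2.02 to -1.88, Ifi204 from -0.34 to -0.20 and Aim2 from 0.22 to 0.35. The count of members higher went from 1 to 0 with normexp, with the median over a gene's probes, with genes above background on both arrays and with bounds, in each case through Pyhin1. The members' median of -1.13 became -1.04 with median scaling, -0.998 with the median over probes, -1.97 with genes above background on both arrays and -1.88 with the LOC100048309 probe for Ifi204. With normexp the pathway genes at least 2-fold lower went from 20 to 12. Over all genes, those lower went from 1150 to 613 and those higher from 1240 to 789. The normexp offset of 50 is added to every signal on both arrays, which by itself shrinks the folds of dim probes most. How far that accounts for the smaller counts was not tested. With genes above background on both arrays 693 were lower and 793 higher, and with no filter on dim probes 1760 were lower. The median of all genes, -0.05, ran from -0.09 to 0.04 over the settings. Pyhin1, at 2.60 by its brightest probe, was at -0.04 by the median over its probes; 183 recomputed values moved by less than the spot error or stayed within 1.5 times their count, and 53 moved by more.

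Signals near background, those of Pyhin1 and A_55_P2004507, have bounds rather than folds. No paired analysis was possible because each group has 1 array.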
